A study of Mus musculus with 4 samples.

Results

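Interferon-gamma, the Fas ligand, the related death ligand TRAIL and the receptor chains of the first pair are described here across the cell types of injured aged mouse spinal cord. The 6 genes were chosen by name from the 53647 genes of the count tables, and each symbol matched 1 gene ID; the rule names the genes and uses no measured value, but the set was proposed with earlier results of these data known. They are Ifng (interferon-gamma, ENSMUSG00000055170.5), Ifngr1 (its ligand-binding receptor chain, ENSMUSG00000020009.14), Ifngr2 (its signalling receptor chain, ENSMUSG00000022965.9), Fasl (ENSMUSG00000000817.11), Fas (the receptor of the Fas ligand, ENSMUSG00000024778.14) and Tnfsf10 (TRAIL, ENSMUSG00000039304.12). Single-cell RNA sequencing was done on spinal cord of aged C57BL/6J mice, an inbred strain, 28 days after spinal cord injury, with 2 libraries from mice given an antibody against CD8 (Anti-CD8) and 2 from mice given a control antibody (IgG). A segment of 2 mm that included the lesion was dissociated, and all 4 libraries come from injured cord. CD8 is the co-receptor of cytotoxic T cells, but other lymphocytes can carry it too. The design text names them biological replicates without giving the number of mice per library, and every p-value here reflects only the spread among the libraries, part of which may be technical.

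Interferon-gamma is a cytokine made mainly by activated T cells and natural killer (NK) cells. It binds a receptor built of both chains, Ifngr1 and Ifngr2, and signals through the kinases Jak1 and Jak2, which raises genes of antigen presentation and host defence; microglia and macrophages are well-known responders. The Fas ligand is a membrane protein of cytotoxic lymphocytes that triggers the death receptor Fas and, through Fadd and caspase 8, cell death, and TRAIL acts in the same way on its own receptor, Tnfrsf10b in the mouse. RNA of a ligand shows which cells could send a signal and RNA of a receptor which could receive it; neither shows protein or contact.

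The stretch of 250 bases before the RefSeq start site was read for all 6 genes (GRCm38.p6; the counts were made on GRCm39, so these positions were not joined to the counts). Ifng, Fasl and Tnfsf10 are shown because their RNA lay in few cell types, and Fas because ependymal cells held far more of it than any other class. Capitals mark GAS motifs (TTCNNNGAA, the gamma-interferon activation site), interferon regulatory factor (IRF) motifs (AANNGAAA or its reverse TTTCNNTT) and a TATA box (TATAAA), each searched on both strands.
Ifng, chr10:118440796-118441045, plus strand: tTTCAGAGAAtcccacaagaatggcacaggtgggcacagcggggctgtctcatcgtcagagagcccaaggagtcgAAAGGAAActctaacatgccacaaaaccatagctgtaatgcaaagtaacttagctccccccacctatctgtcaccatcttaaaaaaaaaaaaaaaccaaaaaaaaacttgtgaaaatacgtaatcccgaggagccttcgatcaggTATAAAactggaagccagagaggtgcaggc
Fasl, chr1:161788496-161788745, minus strand: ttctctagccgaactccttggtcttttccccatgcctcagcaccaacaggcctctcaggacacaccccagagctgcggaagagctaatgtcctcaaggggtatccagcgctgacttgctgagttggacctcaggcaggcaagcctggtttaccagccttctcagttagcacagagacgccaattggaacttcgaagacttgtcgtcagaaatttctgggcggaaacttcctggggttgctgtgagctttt
Tnfsf10, chr3:27316827-27317076, plus strand: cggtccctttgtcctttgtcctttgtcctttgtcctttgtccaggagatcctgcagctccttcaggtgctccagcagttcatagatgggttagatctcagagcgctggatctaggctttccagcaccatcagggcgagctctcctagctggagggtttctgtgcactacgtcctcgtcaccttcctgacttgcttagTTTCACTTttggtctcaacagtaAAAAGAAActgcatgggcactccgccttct
Fas, chr19:34290409-34290658, plus strand: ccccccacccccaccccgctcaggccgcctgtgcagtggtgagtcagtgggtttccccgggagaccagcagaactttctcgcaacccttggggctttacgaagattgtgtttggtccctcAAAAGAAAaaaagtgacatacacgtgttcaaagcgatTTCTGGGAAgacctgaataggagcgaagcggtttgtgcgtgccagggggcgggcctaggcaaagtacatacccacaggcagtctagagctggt
In Ifng the GAS motif began 249 bases, the IRF motif 175 bases and the TATA box 30 bases before the start site. Tnfsf10 held IRF motifs at 53 and 30 bases, and Fas an IRF motif at 130 and a GAS motif at 93 bases before the start. The Fasl stretch held none of these letters, nor did those of Ifngr1 (chr10:19591699-19591948, plus strand) and Ifngr2 (chr16:91546809-91547058, plus strand). No stretch of the 6 held the T-box letters TCACACCT. Among 32851 mouse promoter stretches of the same length, 7.02% held a GAS, 21.3% an IRF, 12.4% a TATA and 1.12% a T-box motif, so a match is no more than a description. No motif of the list overlapped another in these stretches.

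The libraries kept 7481 and 7816 cells in Anti-CD8 and 6108 and 6290 cells in IgG, 27695 in all, with library totals of 152457679 and 170539226 UMIs (unique molecular identifiers, 1 per captured RNA molecule) in Anti-CD8 and 153016369 and 152625351 UMIs in IgG. Of 31 clusters, those that met the marker thresholds and the further naming rules given below formed 11 classes. These were "T-cell-like", "NK-cell-like" and so on, given here by their short names. The Spp1-high myeloid cells join 4 clusters led by Mmp12, Saa3, Postn and Apoc1. They had at most 4 of 10 microglial markers at 2-fold or more over the cluster with the highest monocyte/macrophage score. Their Spp1 lay at 4659 to 15164 CPM. A pair of unnamed clusters held Spp1 within that range, at 8167 and 5787 CPM. That pair passed 6 and 7 of 10 microglial markers but took no name under the further rules. Pairs of libraries shared between 5 and 16 cell barcodes. T cells carried all 12 of their markers, with a summed level of 5504 and 4935 CPM (UMIs of a gene per 1000000 UMIs of the class) in Anti-CD8 and 5373 and 5603 CPM in IgG, against 112 to 193 CPM for the NK markers. In NK cells the NK markers summed to 2525 and 2057 CPM in Anti-CD8 and 1034 and 1966 CPM in IgG, while T-cell markers summed to 1403 and 1648 CPM in Anti-CD8 and 2643 and 2327 CPM in IgG. The NK class therefore held T-cell RNA, more of it in IgG, and the part of that RNA in the NK values was not tested. With finer clusters, a cluster of 700 cells with a T-cell score of 7.765 took no name and left the T-cell class. That class then held 345 and 186 cells in Anti-CD8 and 178 and 315 in IgG. At the main setting it held 416 and 258 cells in Anti-CD8 and 329 and 703 in IgG. The part of this loss in the values with finer clusters was not tested. The check of the antibody's target was Cd8b1, a CD8 chain left out of the clustering: T cells had 272 and 175 CPM after TMM scaling in Anti-CD8 and 711 and 502 CPM in IgG (log2 fold change -1.43, SE 0.22, edgeR adjusted p = 0.0302; not called with finer clusters, adjusted p = 0.870). Cd8a, the other chain, had a log2 fold change of -1.06 (edgeR adjusted p = 0.109; called without Anti-CD8 replicate 1 at 0.0172, without IgG replicate 1 at 0.000356 and without IgG replicate 2 at 9.24e-06), and 35.8% and 34.5% of Anti-CD8 T cells had a CD8 UMI, against 82.4% and 69.7% of IgG T cells.

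Ifng RNA lay in T cells and NK cells. T cells held 157 and 139 CPM in the Anti-CD8 libraries and 131 and 145 CPM in the IgG libraries, from 386 and 245 UMIs in Anti-CD8 and 323 and 733 UMIs in IgG. The groups overlapped and all 4 libraries were close together (143 ± 10.9 CPM, SD, n = 4). NK cells held 75.8 and 65.7 CPM in Anti-CD8 and 41.1 and 136 CPM in IgG, where the low IgG value rests on 6 UMIs from 17 cells. The class with the next highest mean was 208-fold below NK cells, and microglia held only 0.134 and 0.0925 CPM in Anti-CD8 and 0.348 and 0.185 CPM in IgG. Fibroblasts and neutrophils had no Ifng UMI, but these classes had at most 16 and 6 cells in a library. An unnamed cluster of dividing cells led by Ube2c, Birc5 and Top2a had 0.56 and 0.41 CPM in Anti-CD8 and 11.2 and 9.68 CPM in IgG. It mixes markers of several types, with Camp among its leading genes and T cell as its second-highest marker score (3.029). It also held 12.8 CPM of Cd3e and 10.7 CPM of Cd8a over all libraries, and the part of T cells in its Ifng was not tested.

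Fasl followed the same pair of classes. Its level in T cells was 228 and 180 CPM in Anti-CD8 and 264 and 226 CPM in IgG, and in NK cells 241 and 200 CPM in Anti-CD8 and 240 and 191 CPM in IgG. The ranges of T cells (225 ± 34.7 CPM, SD, n = 4 libraries) and NK cells (218 ± 26.3 CPM, SD, n = 4) overlapped, and NK cells stood 112-fold above the next class. That class, pericytes and smooth muscle, held 0 CPM in both Anti-CD8 libraries and 4.72 and 3.06 CPM in the IgG libraries; all other classes averaged under 0.7 CPM. Monocyte/macrophages, fibroblasts and neutrophils had no Fasl UMI in any library.

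Tnfsf10 was spread differently. Endothelial cells led with 91.6 and 86.1 CPM in Anti-CD8 and 115 and 85.3 CPM in IgG, and NK cells overlapped with them at 77.5 and 88.7 CPM in Anti-CD8 and 116 and 62.1 CPM in IgG. T cells were lower, at 35.7 and 26.1 CPM in Anti-CD8 and 53.0 and 32.8 CPM in IgG, a range apart from that of NK cells. Endothelial cells held 64.8% and 57.3% of the Tnfsf10 UMIs in the Anti-CD8 libraries and 51.3% and 57.3% in the IgG libraries, so most TRAIL RNA lay outside lymphocytes. An unnamed cluster led by the mural genes Rgs5, Vtn and Abcc9 averaged 64.6 ± 19.6 CPM (SD, n = 4), whereas the class of pericytes and smooth muscle averaged 0.776 CPM. That cluster scored nearly alike for pericyte/smooth muscle (7.715) and endothelial markers (7.599). The part of endothelial RNA in its Tnfsf10 was not tested. Since each UMI is counted near the 3′ end of an RNA and was not divided by length, levels are compared here within a gene and not between genes.

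T cells and NK cells were set against each other within libraries (edgeR quasi-likelihood test with library as a block, Benjamini-Hochberg over 10063 genes; 15.1% of genes differed at an adjusted p under 0.05). Of the 6 genes, 4 differed: Ifng, Tnfsf10, Fas and Ifngr2. Ifng was higher in T cells than in NK cells in 4 of 4 libraries (146 ± 9.48 against 79.9 ± 40.9 TMM-scaled CPM, SD, n = 4; log2 fold change 0.84, SE 0.18, adjusted p = 0.00270). Tnfsf10 was lower in T cells (37.8 ± 12.3 against 85.8 ± 20.9 CPM, SD, n = 4; log2 fold change -1.23, SE 0.19, adjusted p = 7.27e-05). Fas was higher in T cells in 4 of 4 libraries (21.3 ± 8.41 against 7.32 ± 5.50 CPM, SD, n = 4). Its log2 fold change was 1.36 (SE 0.34, edgeR adjusted p = 0.00861), a call lost without Anti-CD8 replicate 2 (adjusted p = 0.107). The NK values rest on only 4 and 15 Fas UMIs in Anti-CD8 and 0 and 4 in IgG. Fasl had a log2 fold change of 0.05 with an SE of 0.13, and T cells were higher in 2 of 4 libraries. Ifngr1 had 0.00 with an SE of 0.09, so neither gene differed beyond the spread between libraries.

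Ligand RNA was also counted per library, where the number of lymphocytes and their level act together. T cells made up 5.56% and 3.30% of cells in Anti-CD8 and 5.39% and 11.2% in IgG, and NK cells 0.989% and 1.56% in Anti-CD8 and 0.278% and 0.747% in IgG. T cells held 86.5% and 70.2% of Ifng UMIs in Anti-CD8 and 84.8% and 87.3% in IgG, while NK cells held 9.87% and 22.1% in Anti-CD8 and 1.57% and 7.02% in IgG. For Fasl the NK part was 19.2% and 40.4% in Anti-CD8 and 4.87% and 6.57% in IgG, so the groups did not overlap, and that of T cells was 77.1% and 54.6% in Anti-CD8 and 90.8% in both IgG libraries. Counted over all cells, Ifng had 596 and 447 UMIs per 10000 cells in Anti-CD8 and 624 and 1335 in IgG (log2 ratio of the means -0.91), and Fasl had 974 and 741 in Anti-CD8 and 1177 and 2008 in IgG (log2 ratio -0.89). IgG replicate 2, with the most T cells, stood highest in both. The exact permutation test over libraries gave a two-sided p of 0.33 for each, which is the smallest p that 2 against 2 libraries allow. Summed over all cells and fitted with edgeR, 0 of 23675 genes (0%) passed an adjusted p of 0.05, with 996 at an unadjusted p under 0.05 and 65 called by DESeq2. In that fit the log2 fold change was -0.69 for Fasl (SE 0.29, adjusted p = 0.989) and -0.70 for Ifng (SE 0.38, adjusted p = 0.989). Without IgG replicate 2 the log2 ratios per 10000 cells were -0.26 for Ifng and -0.46 for Fasl.

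**Figure D1:**
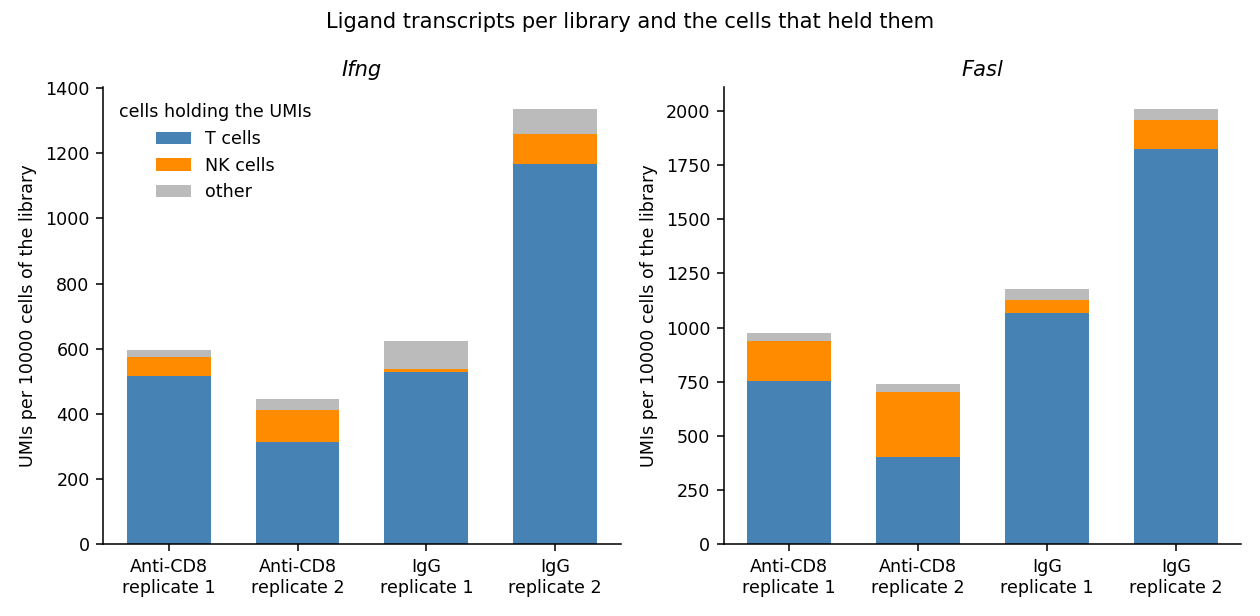
UMIs of Ifng and of Fasl per 10000 cells of a library (y axis), 1 stacked bar per library with Anti-CD8 left of IgG, split into the UMIs of T cells, NK cells and all other cells. T cells hold most UMIs of both genes in all 4 libraries, IgG replicate 2 has the highest bar of both, and NK cells hold 19.2% and 40.4% of Fasl in Anti-CD8 and 4.87% and 6.57% in IgG.

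Ifng RNA was concentrated in few T cells and Fasl RNA in many. After each T cell was thinned to 2000 UMIs, Ifng was detected in 16.3% and 14.3% of T cells in Anti-CD8 and 11.7% and 16.3% in IgG. Fasl was detected in 33.9% and 28.6% of thinned T cells in Anti-CD8 and 36.3% and 32.1% in IgG. In microglia, which should lack both (median depth 15845 to 20173 UMIs), at most 1 cell in a library had a UMI of either gene after thinning, out of 2021 to 2931 cells. Without thinning the shares in T cells were 27.2% and 24.4% (Anti-CD8) and 26.7% and 31.6% (IgG) for Ifng, and 58.7% and 58.9% (Anti-CD8) and 76.9% and 68.6% (IgG) for Fasl, at a median depth of 5915 and 6637 UMIs per T cell in Anti-CD8 and 7196 and 6925 in IgG. The groups thus overlapped for Fasl at 2000 UMIs and separated without thinning, and they also separated at 4000 UMIs (44.6% ± 3.15 in Anti-CD8 and 56.5% ± 5.37 in IgG, SD, n = 2 each), where shallower T cells were left out. The 10% of T cells with the most Ifng held 76.4% and 80.8% of the class's Ifng UMIs in Anti-CD8 and 78.0% and 73.5% in IgG, with up to 52 and 42 UMIs in a single Anti-CD8 cell and 55 and 30 in a single IgG cell. The corresponding 10% held 36.1% and 35.8% of Fasl UMIs in Anti-CD8 and 30.5% and 31.8% in IgG.

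A Fasl UMI was found at like shares in T cells with and without an Ifng UMI. Among thinned T cells with an Ifng UMI, 28.6% and 41.2% in Anti-CD8 and 28.9% and 29.7% in IgG also had a Fasl UMI; among those without, it was 35.0% and 26.5% in Anti-CD8 and 37.3% and 32.5% in IgG. The share was lower in Ifng-positive cells in 3 libraries and higher in Anti-CD8 replicate 2. Cells with either ligand made up 45.6% and 37.0% of T cells in Anti-CD8 and 44.6% and 43.5% in IgG.

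Ifngr1, the chain that binds interferon-gamma, was highest in the lymphocytes that also held the ligand. NK cells had 1385 and 1137 CPM in Anti-CD8 and 1273 and 1104 CPM in IgG, and T cells 1426 and 1237 CPM in Anti-CD8 and 1062 and 1077 CPM in IgG. These classes overlapped, while monocyte/macrophages, the next class, lay 5.46-fold below T cells, at 234 and 225 CPM in Anti-CD8 and 216 and 205 CPM in IgG. Microglia had 241 and 198 CPM in Anti-CD8 and 216 and 212 CPM in IgG and overlapped with monocyte/macrophages. Spp1-high myeloid cells followed at 139 ± 6.81 CPM (SD, n = 4 libraries), then, with the few fibroblasts and neutrophils left aside, pericytes and smooth muscle at 90.4 ± 11.7, endothelial cells at 67.8 ± 1.80, ependymal cells at 57.6 ± 5.63 and neurons at 22.9 ± 6.20 CPM, the last 4 with ranges apart from each other. Microglia, the largest class, held the most Ifngr1 UMIs of a library, 39.1% and 39.8% in Anti-CD8 and 41.8% and 33.9% in IgG.

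Ifngr2, the chain that limits signalling in many T cells, had its highest levels in myeloid cells and not in lymphocytes; apart from neurons, the other large classes stood in much the same order as for Ifngr1. Microglia led with 241 and 230 CPM in Anti-CD8 and 239 and 236 CPM in IgG, above monocyte/macrophages at 198 and 196 CPM in Anti-CD8 and 172 and 190 CPM in IgG. Spp1-high myeloid cells had 187 and 183 CPM in Anti-CD8 and 187 and 186 CPM in IgG and overlapped with monocyte/macrophages; within each of these 3 myeloid classes the library values lay within a narrow band. T cells had 60.5 and 58.5 CPM in Anti-CD8 and 30.8 and 30.4 CPM in IgG, a gap with no overlap that is taken up below with the antibody comparison. NK cells were lowest of the named classes at 3.44 and 5.97 CPM in Anti-CD8 and 6.85 and 4.60 CPM in IgG, from 2 and 7 UMIs in Anti-CD8 and 1 and 2 UMIs in IgG. In the test of T cells over NK cells, Ifngr2 was higher in T cells in 4 of 4 libraries (log2 fold change 3.31, SE 0.33, adjusted p = 2.47e-07, edgeR).

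Fas was highest in ependymal cells, the ciliated lining of the central canal. They had 918 and 693 CPM in Anti-CD8 and 787 and 601 CPM in IgG, from 2328 to 5464 UMIs a library, and stood 4.44-fold above endothelial cells. Single ependymal cells reached 173 and 126 Fas UMIs in the Anti-CD8 libraries and 178 and 119 in the IgG libraries, and 96.4% ± 1.20 of them in Anti-CD8 and 96.0% ± 1.14 in IgG had at least 1 (SD, n = 2 each). Endothelial cells had 176 and 174 CPM in Anti-CD8 and 144 and 180 CPM in IgG. Pericytes and smooth muscle had 83.2 and 117 CPM in Anti-CD8 and 75.5 and 44.3 CPM in IgG, groups that did not overlap. The lymphocytes held little of the receptor: T cells had 16.2 and 33.0 CPM in Anti-CD8 and 14.6 and 19.7 CPM in IgG, and NK cells averaged 7.22 ± 5.39 CPM (SD, n = 4). Neurons averaged 2.34 ± 1.34 CPM. Ependymal cells held 52.8% and 35.3% of all Fas UMIs in Anti-CD8 and 48.0% and 34.3% in IgG although they were few.

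Microglia and monocyte/macrophages differed in their receptors (edgeR with library as a block, 16542 genes, 49.6% of which differed). Ifngr1 was higher in monocyte/macrophages than in microglia (log2 fold change 0.17, SE 0.04, adjusted p = 0.00367) and Ifngr2 lower (-0.17, SE 0.04, adjusted p = 0.00241), each in 4 of 4 libraries. The call of Ifngr1 was lost without Anti-CD8 replicate 2 (0.11, adjusted p = 0.0910). Fas was lower in monocyte/macrophages, at 12.6 ± 1.58 against 31.7 ± 1.90 TMM-scaled CPM (SD, n = 4; log2 fold change -1.35, SE 0.09, adjusted p = 1.26e-09). Since nearly as many genes differed between these classes as did not, the size of each difference says more than the call.

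Within classes, Anti-CD8 was compared with IgG for each gene that passed the filter on low counts (edgeR quasi-likelihood test on UMIs summed per library and class, Benjamini-Hochberg over all genes of a class). In T cells 63 of 10299 genes (0.612%) passed, and of the 6 members, all of them tested, Ifngr2 was the only 1 that did. Without Anti-CD8 replicate 1, IgG replicate 1 or IgG replicate 2 the number of genes called was 99, 353 or 410. Ifngr2 was higher in Anti-CD8, with 59.5 ± 0.994 against 31.2 ± 0.967 TMM-scaled CPM in IgG (SD, n = 2 each; log2 fold change 0.94, SE 0.15, adjusted p = 0.0355). The values rest on 149 and 103 UMIs in Anti-CD8 and 76 and 154 UMIs in IgG, so the counting error of each library is larger than these SDs. This call was lost with DESeq2 (adjusted p = 0.0841), with replicate number as a block (0.105), without Anti-CD8 replicate 1 (0.107) or replicate 2 (0.0755), when doublets were kept (0.41 on the log2 scale, adjusted p = 0.197) and with finer clusters (0.43, adjusted p = 0.870). The difference in T cells exceeded that in microglia by 0.96 on the log2 scale (SE 0.17, adjusted p = 0.000236, 1.3% of 17337 genes called). It exceeded that in Spp1-high myeloid cells by 0.97 (SE 0.16, adjusted p = 0.000533, 1.16% of 17917 genes called). Both came from an edgeR test of the interaction that was chosen after the values were seen. Each of these fits took a single spread per gene over both classes, so its p does not measure the spread among T-cell libraries alone.

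T cells of the 2 groups also differed in their makeup, and that moved with Ifngr2. A cluster led by Trdc, Scart1, Il17a and Il23r, genes of gamma-delta T cells that make interleukin-17, held 25.0% and 25.2% of T cells in Anti-CD8 and 6.99% and 9.96% in IgG. Its cells had 178 and 169 CPM of Ifngr2 in Anti-CD8 and 242 and 237 CPM in IgG, lower in Anti-CD8 with no overlap, and they held 71.8% and 83.5% of T-cell Ifngr2 UMIs in Anti-CD8 and 59.2% and 73.4% in IgG. The T cells outside it had 22.5 and 13.6 CPM in Anti-CD8 and 13.6 and 8.93 CPM in IgG, from 42 and 17 UMIs in Anti-CD8 and 31 and 41 in IgG, and there the lowest Anti-CD8 and the highest IgG value were both 13.6 CPM (18.1 ± 6.33 against 11.2 ± 3.28 CPM, SD, n = 2 each). The part of this makeup in the difference of the whole class was not tested. Split by the antibody's target instead, Ifngr2 changed by 0.82 on the log2 scale in T cells with a CD8 UMI (SE 0.41, adjusted p = 0.777), which did not pass, and by -0.27 in those without one (SE 0.20, adjusted p = 1.00), with 0.011% and 0% of genes called.

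The ligands in T cells were not called. The log2 fold change of Ifng was 0.08 (SE 0.12, adjusted p = 0.888) and that of Fasl was -0.29 (SE 0.15, adjusted p = 0.514). Tnfsf10 had -0.44 (SE 0.27, adjusted p = 0.604; -0.80 and called at 0.0444 without IgG replicate 2), Fas had 0.42 (SE 0.33, adjusted p = 0.708) and Ifngr1 had 0.29 (SE 0.10, adjusted p = 0.296). For Ifngr1 both Anti-CD8 libraries were higher. Such a separation of 2 against 2 libraries has an exact permutation p of 0.33, and the share of all genes that separate was not counted. The Trdc-led cluster, a larger part of T cells in Anti-CD8, held 1722 CPM of Ifngr1 over all libraries. The largest T-cell cluster held 1066 CPM, and the part of this makeup in the difference was not tested. For Fasl the Anti-CD8 values (228 and 180 CPM) reached the lower IgG value (226 CPM). A difference that misses the threshold with 2 libraries a group does not show that levels were alike.

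**Figure D2:**
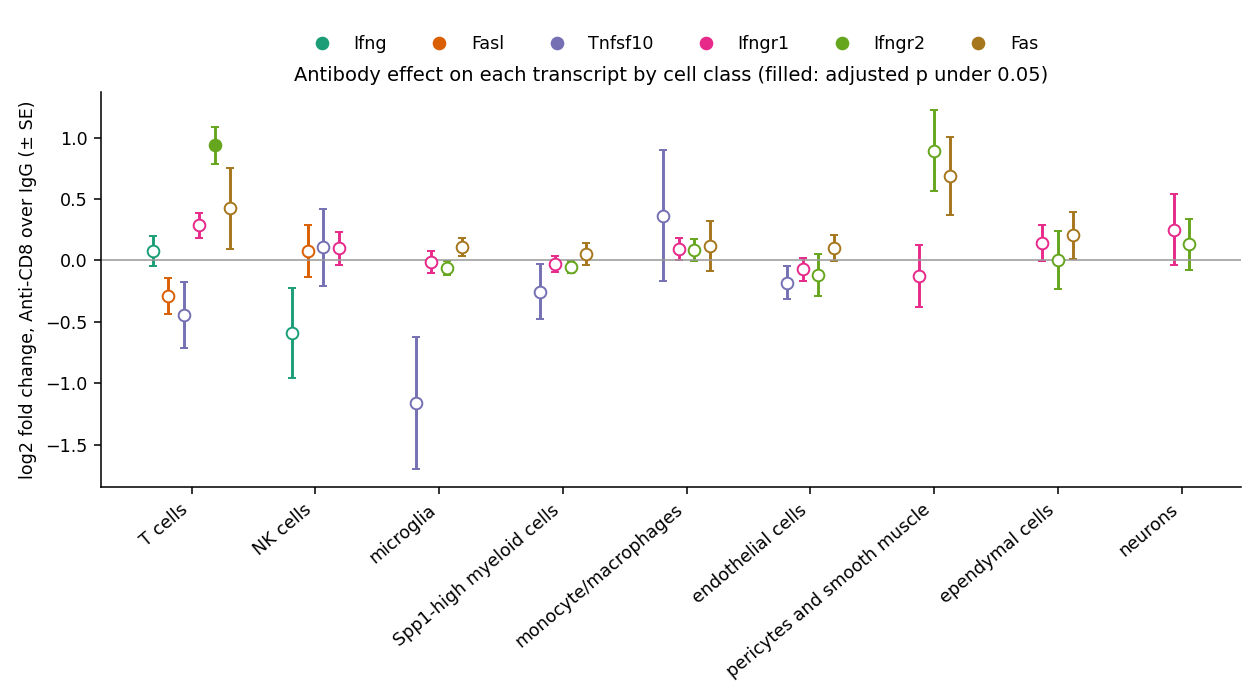
Log2 fold change of Anti-CD8 over IgG (y axis) for each member that passed the filter on low counts in each class (x axis), with bars of 1 SE; filled points passed an adjusted p of 0.05. Ifngr2 in T cells (0.94) is the only filled point; Tnfsf10 in microglia (-1.16) is the farthest below 0 and has an SE of 0.54.

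Outside T cells no member passed in any class fitted with all 4 libraries and the filter on low counts, by edgeR or by DESeq2. Tnfsf10 in microglia was called lower by edgeR with no filter (adjusted p = 1.56e-08), at the fold change that missed the threshold with the filter. In those values IgG replicate 1 alone stood high. In microglia 0 of 17128 genes (0%) passed, with 1318 at an unadjusted p under 0.05, none of them a member, and, in Spp1-high myeloid cells 0 of 16628 (0%), with 1261. Monocyte/macrophages had 2 of 12060 genes called (0.0166%), ependymal cells 1 of 14266 (0.00701%), neurons 90 of 13954 (0.645%), and endothelial cells (662 of 13901 at an unadjusted p under 0.05) and pericytes and smooth muscle (312 of 8049) 0 (0%). The myeloid receptors moved little: Ifngr1 had a log2 fold change of -0.01 (SE 0.09) in microglia, -0.03 (SE 0.07) in Spp1-high cells and 0.09 (SE 0.09) in monocyte/macrophages, and Ifngr2 one of -0.06 (SE 0.06), -0.06 (SE 0.05) and 0.09 (SE 0.09) in the same classes. Fas in ependymal cells had 0.21 (SE 0.19, adjusted p = 1.00) and in endothelial cells 0.10 (SE 0.10, adjusted p = 1.00). Pericytes and smooth muscle had 0.89 for Ifngr2 (SE 0.33, adjusted p = 1.00) and 0.69 for Fas (SE 0.32, adjusted p = 1.00), both higher in each Anti-CD8 library, from 22 to 60 UMIs a library. NK cells, fitted although IgG replicate 1 held 17 of them, had -0.59 for Ifng (SE 0.36, adjusted p = 0.900), 0.08 for Fasl, 0.11 for Tnfsf10 and 0.10 for Ifngr1, with 0 of 6188 genes called (0%). The difference between the antibody effects in monocyte/macrophages and in microglia passed for 3 of 16542 genes (0.0181%), none of them a member.

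Tnfsf10 in microglia had the lowest fold change of a member, -1.16 (SE 0.54, adjusted p = 0.657), and rested on IgG replicate 1. The values were 2.03 and 1.76 CPM in Anti-CD8 and 6.47 and 1.62 CPM in IgG, so a single library stood high. In that library 18.8% of microglia belonged to a cluster led by the interferon-induced genes Ifit2, Ifit3 and Mx1, against 2.95% in IgG replicate 2 and 1.63% and 3.95% in Anti-CD8. That cluster had 17.9 and 9.17 CPM of Tnfsf10 in Anti-CD8 and 22.6 and 14.3 CPM in IgG. Microglia outside it had 1.72 and 1.36 CPM in Anti-CD8 and 2.36 and 1.17 CPM in IgG, which overlapped. Without IgG replicate 1 the fold change was 0.18, and without IgG replicate 2, where the high library alone stood for IgG, it was -1.83 and called (edgeR adjusted p = 0.000183).

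Within T cells, the ligands and receptors were divided among clusters. The cluster led by Cd8b1, Themis, Nkg7 and Gzmk had 200 and 186 CPM of Ifng in Anti-CD8 and 146 and 161 CPM in IgG. It was higher in both Anti-CD8 libraries, a difference that was not tested. The cluster held 260 and 154 cells in Anti-CD8, where only 149 and 89 T cells of any cluster had a CD8 UMI. In IgG it held 283 and 571 cells, where 271 and 490 T cells had a CD8 UMI. The cluster led by Trdc had 11.7 and 49.2 CPM of Ifng in Anti-CD8 and 10.8 and 14.7 CPM in IgG. These values rest on 7 and 25 UMIs in Anti-CD8 and 2 and 7 in IgG. The smallest cluster, with Cd6 beside the mast-cell proteases Mcpt2 and Tpsb2 and a median of 2208 UMIs a cell, had 259 and 52.0 CPM in Anti-CD8 and 0 and 79.9 CPM in IgG, the widest spread of the 3. Fasl was likewise lowest in the Trdc cluster, with 102 and 66.9 CPM in Anti-CD8 and 53.8 and 44.1 CPM in IgG, against 256 and 202 CPM in Anti-CD8 and 281 and 241 CPM in IgG in the Cd8b1 cluster. It was highest on average in the smallest cluster, with 460 and 509 CPM in Anti-CD8 and 278 and 366 CPM in IgG, from 55 and 49 UMIs in Anti-CD8 and 23 and 55 in IgG. There the groups did not overlap, a difference that was not tested. Ifngr1 was high in both, with 1762 ± 213 CPM in Anti-CD8 and 1601 ± 103 in IgG in the Trdc cluster and 1163 ± 144 in Anti-CD8 and 1017 ± 8.56 in IgG in the Cd8b1 cluster (SD, n = 2 each). Ifngr2 was low in the Cd8b1 cluster (20.6 and 12.1 CPM in Anti-CD8, 12.3 and 8.55 CPM in IgG).

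T cells in which no CD8 UMI was counted also held UMIs of the ligands; at this depth a cell with no CD8 UMI can still hold CD8 RNA. T cells with a CD8 UMI had 166 and 142 CPM of Ifng in Anti-CD8 and 146 and 135 CPM in IgG. T cells with a Cd4 UMI and no CD8 UMI, 72 and 41 cells in Anti-CD8 and 11 and 64 in IgG, had 178 and 211 CPM in Anti-CD8 and 103 and 201 CPM in IgG. Their Fasl level was 282 and 215 CPM in Anti-CD8 and 271 and 285 CPM in IgG, within the range of 199 to 286 CPM seen in cells with a CD8 UMI. T cells with a Trdc UMI and no CD8 or Cd4 UMI numbered 54 and 18 in Anti-CD8 and 7 and 39 in IgG. They had 6.85 and 85.3 CPM of Ifng in Anti-CD8, from only 2 and 11 UMIs, and no Ifng UMI in IgG. After thinning, 0 of 52 and 1 of 18 of these cells in Anti-CD8 had an Ifng UMI.

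**Figure D3:**
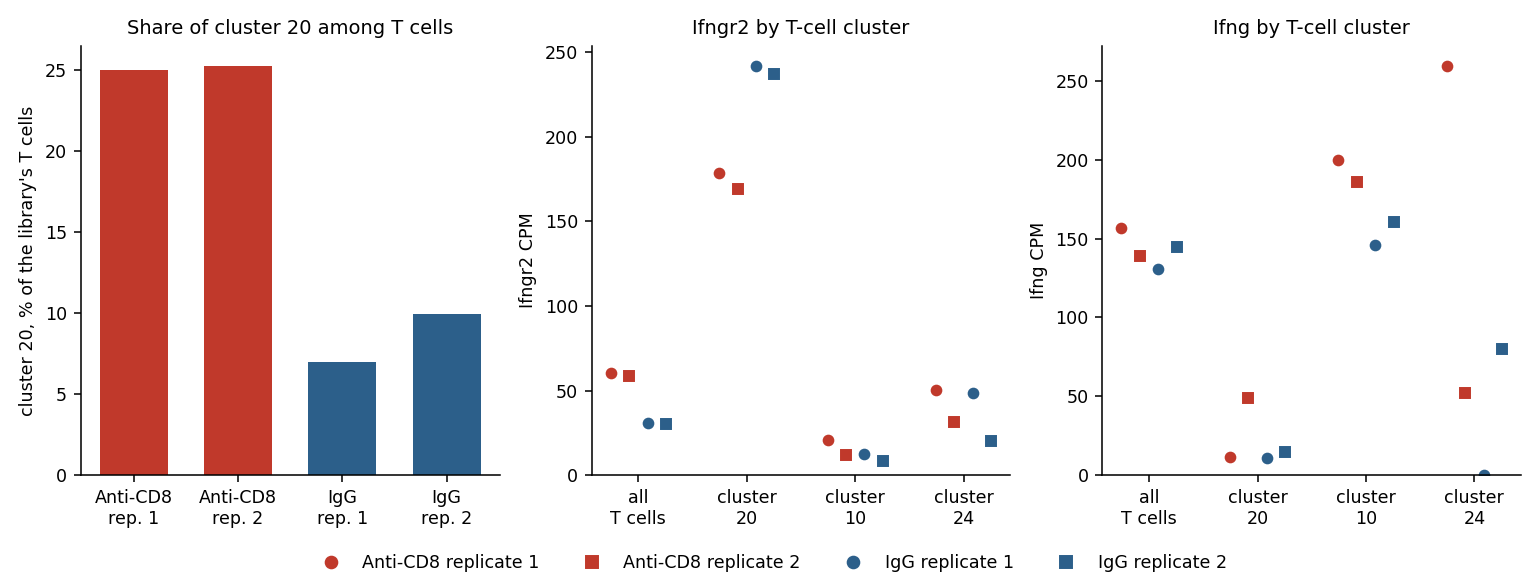
Share of T cells in the Trdc-led cluster (cluster 20; bars, percent), and levels of Ifngr2 and Ifng in all T cells, the Trdc-led cluster, the Cd8b1-led cluster (10) and the smallest cluster (24), in CPM of the cluster; each bar or point is a library, Anti-CD8 left of IgG. The Trdc-led cluster holds 25.0% and 25.2% of Anti-CD8 and 6.99% and 9.96% of IgG T cells and is highest in Ifngr2 in all 4 libraries; Ifng is higher in the Cd8b1-led cluster than in it in all 4.

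T cells with and without an Ifng UMI after thinning were compared within libraries (63 and 34 positive cells in Anti-CD8, 38 and 111 in IgG; edgeR with library as a block). Of 5440 genes, 162 (2.98%) passed an adjusted p of 0.05, 90 higher and 72 lower in cells with Ifng. The higher genes included the immediate early transcription factors Fos (479 ± 51.4 against 149 ± 37.1 CPM; SD, n = 4 libraries), Jun and Fosb, with log2 fold changes of 1.74, 1.36 and 1.74. The heat shock genes Hspa1b, Hspa1a and Hsp90aa1 followed with 1.78, 1.74 and 1.09, and Klf6 and Dusp1 with 1.12 and 1.27; all 8 were higher in 4 of 4 libraries. Igkc and Ighm, immunoglobulin genes of B cells, also passed, with 3.40 and 2.77, but were higher in only 1 of 4 libraries, where Igkc reached 2640 CPM in the positive cells of Anti-CD8 replicate 1 and at most 15.3 CPM in those of any other. Lower in cells with Ifng were Trdc (10.1 against 210 CPM), Scart1 (3.82 against 135 CPM), Trdv4 (3.82 against 68.7 CPM), Palld (1.24 against 65.2 CPM), and Il17a and Blk, which were not detected in them (82.5 and 49.6 CPM in the cells without). Ramp1, Arhgap31 and Camk4 fell as well, with -2.26, -1.20 and -0.93. Among genes of the interferon-gamma lists, Socs1, an inhibitor of the receptor's kinases, was higher with 1.05 (adjusted p = 0.000702), as were the induced GTPase Gbp2 with 1.46 (adjusted p = 0.0257) and Tbx21, the transcription factor T-bet, with 0.62 (adjusted p = 0.0485). Cd8a was higher with 0.60 (adjusted p = 0.0356) and Il18r1, a receptor chain for interleukin-18, lower with -0.70 (adjusted p = 0.0310). Without Anti-CD8 replicate 1 Igkc had -1.77 (adjusted p = 0.491); B-cell markers in the T cells of that library summed to 21.1 CPM, against 6.25 CPM in the other Anti-CD8 library and 5.66 and 9.86 CPM in IgG, and their part in this result was not tested. The number of genes called was 74 without that library, 83 without IgG replicate 1 and 105 without IgG replicate 2. The calls of Gbp2, Tbx21, Cd8a and Il18r1 were each lost without at least 3 of the 4 libraries in turn, whereas Socs1 was called without each. Of the members, none passed: Ifngr2 had -1.49 (adjusted p = 0.0665; -1.94 and 0.0303 without Anti-CD8 replicate 2), Tnfsf10 had 0.82 (adjusted p = 0.283) and Fasl had -0.09 (adjusted p = 0.923).

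T cells with and without a Fasl UMI were compared in the same way. Of 6052 genes, 106 (1.75%) passed, 23 higher and 83 lower in cells with a Fasl UMI (131 and 68 positive cells in Anti-CD8, 118 and 218 in IgG; same test). Higher were Ccl5, a chemokine of cytotoxic lymphocytes (5598 ± 1865 against 3938 ± 1471 CPM; SD, n = 4), the drug transporters Abcb1b and Abcb1a (0.63 and 0.52 on the log2 scale) and the ubiquitin ligase Cblb (0.53). Prkch, Arid5b, Rras2, Rpa2, Atp11b and Mctp2 were higher by 0.50 to 0.90. Fos and the heat shock genes were not among the 10 with the smallest p in that direction. Scart1, Trdc, Trdv4, Palld, Il17a, Blk and Ramp1 were among the 10 lower genes with the smallest p in both splits, which use the same cells. The lower genes were led by Scart1 (4.03 against 171 CPM) and Trdc (30.0 against 257 CPM), with Il17a (16.1 against 97.3 CPM), Blk (2.19 against 62.5 CPM), Il23r, Ramp1, Tmem176a and Tmem176b, the last 4 with log2 fold changes of -2.24, -2.25, -2.29 and -1.71. Ifngr2 was lower in cells with Fasl, at 23.2 against 61.5 CPM (means of 4 libraries; log2 fold change -1.46, SE 0.32, adjusted p = 0.00444), in all 4 libraries, and so was Il18r1 (-0.72, adjusted p = 0.00873). Ltb, the lymphotoxin beta gene, was lower by a log2 fold change of -0.51 (adjusted p = 0.0260). Ifng had -0.64 (adjusted p = 0.0523). Without Anti-CD8 replicate 1 or IgG replicate 2 the number of genes called fell to 64 or 61, and the call of Ifngr2 was lost without IgG replicate 2 (-1.12, adjusted p = 0.15). Those of Il18r1 and Ltb were lost without either of these libraries, and that of Ltb also without IgG replicate 1 (adjusted p = 0.0548). Of the 10 higher genes, Abcb1b and Cblb were called without each library in turn, and the others lost the call without at least 1, such as Ccl5 at 0.29 (adjusted p = 0.681) without Anti-CD8 replicate 1.

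**Figure D4:**
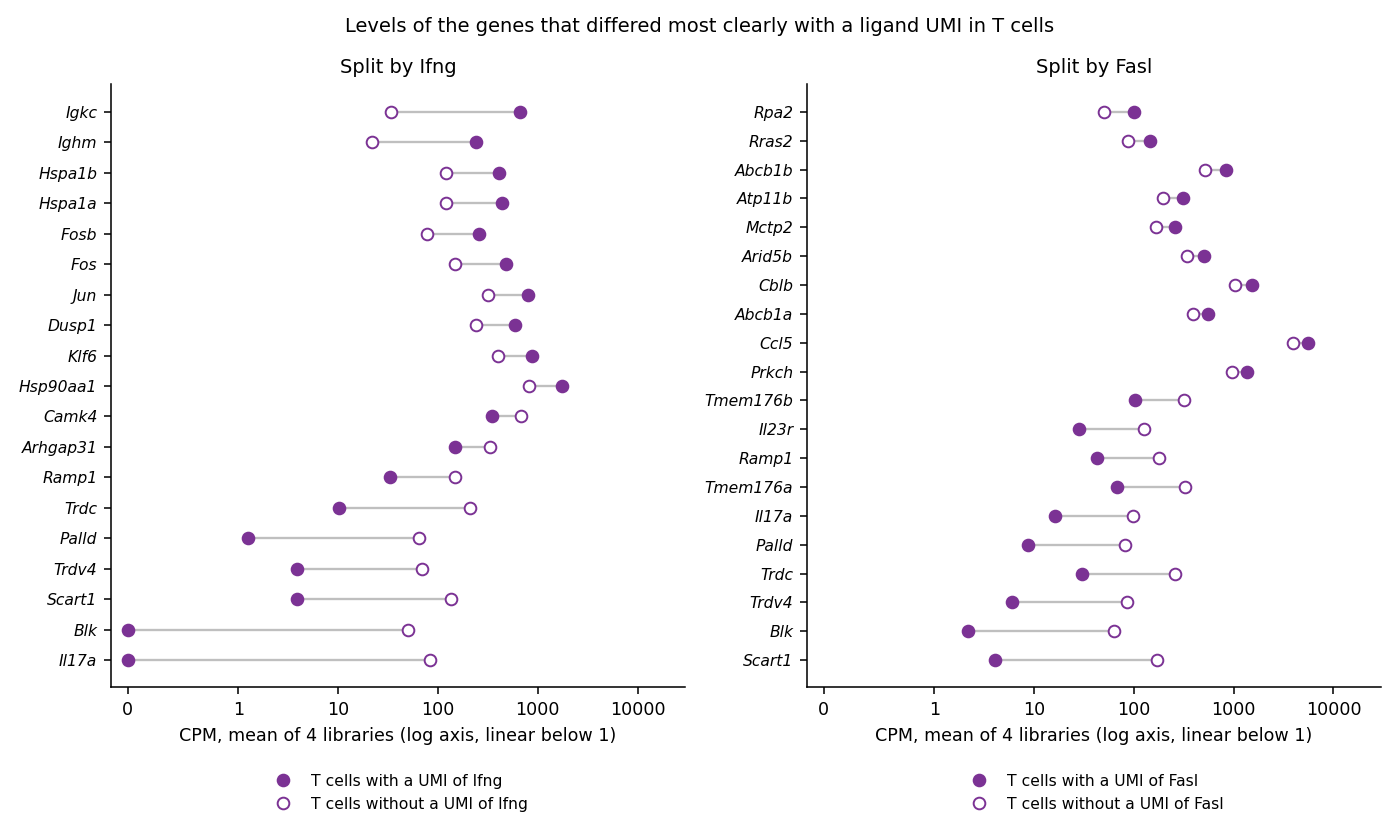
Mean level of named genes over the 4 libraries, in CPM on an axis that is linear near 0 and logarithmic above, in T cells with a ligand UMI (filled) and without (open), for Ifng and for Fasl. Fos lies at 479 with Ifng and 149 without, and Trdc at 10.1 with Ifng and 210 without.

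The partners and targets of these genes were followed in 6 lists. In T cells 0.612% of all genes were called and 1205 of 10299 had an unadjusted p under 0.05. Of the list of inducers of Ifng, 10 of 16 genes could be tested in T cells and 1 was called: Il18r1 rose in Anti-CD8, with 333 and 348 TMM-scaled CPM, against 128 and 174 CPM in IgG (log2 fold change 1.16, SE 0.15, adjusted p = 0.0159). It is also a leading gene of the Trdc cluster, and among the T cells that lacked CD8 UMIs its fold change was 0.15 (adjusted p = 1.00). With finer clusters, where a T-cell-like cluster of 700 cells took no name and 0 genes were called in T cells, it had 0.75 (edgeR adjusted p = 0.858). Of other death ligands and receptors, 1 of 8 was called: Tnfrsf25, a receptor with a death domain, had 19.4 and 21.7 CPM in Anti-CD8, against 5.45 and 7.13 CPM in IgG (log2 fold change 1.65, SE 0.28, adjusted p = 0.0416). That call was lost without Anti-CD8 replicate 1 (adjusted p = 0.0684) or replicate 2 (0.0807), with DESeq2 (0.0839), with the replicate block (0.103), with doublets kept (0.0830) and with finer clusters (0.858). Of 14 genes of interferon-gamma receptor signalling, 22 interferon-gamma induced genes, 16 of death receptor signalling and 3 TRAIL receptors and decoys, none was called in T cells; of these lists 4, 8, 3 and 0 genes had an unadjusted p under 0.05. Tnfrsf10b, the mouse TRAIL receptor, had 0.47 in T cells (SE 0.36, adjusted p = 0.706) and -0.04 in endothelial cells (SE 0.18). In neurons Socs3, an inhibitor of cytokine receptors, rose with 27.0 and 32.1 CPM in Anti-CD8, against 10.4 and 13.3 CPM in IgG (log2 fold change 1.30, SE 0.24, adjusted p = 0.0493), the only gene of the 6 lists called in that class, and it was lost without Anti-CD8 replicate 2 (adjusted p = 0.177), with DESeq2 (0.0738), with stricter cell filters (0.0775) and with doublets kept (0.213). Markers of other cells moved with it in the neuron class. The 10 microglial markers, all detected, summed to 345 and 463 CPM in Anti-CD8 and 204 and 222 CPM in IgG, and the 10 endothelial markers, all detected, to 342 and 214 CPM in Anti-CD8 and 56.9 and 151 CPM in IgG. Their part in the result was not tested.

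The interferon-gamma induced genes of microglia had fold changes mostly below 0, and none was called with the filter on low counts. With no filter 12 of 24 were called lower, among 498 genes called over all genes with any UMI in the class. The number of genes in that fit is not given here, so the share called is not known. The 12 calls are therefore not read as a result about the list. That fit was not repeated without IgG replicate 1. Of 24 tested, 22 had a fold change below 0, against 50.5% of all genes, and their median was -0.31 (all genes 0.00; range -2.48 to 0.07). The genes with the smallest p were B2m, the light chain of MHC class I (2285 and 2621 CPM in Anti-CD8, 3101 and 3025 CPM in IgG; log2 fold change -0.32, adjusted p = 0.599), the GTPases Iigp1 (-2.48, adjusted p = 0.599) and Irgm1 (-1.05, adjusted p = 0.613), and the immunoproteasome subunit Psmb9 (-0.31, adjusted p = 0.634). Iigp1 had 2.50 and 3.06 CPM in Anti-CD8 and 26.3 and 4.78 CPM in IgG, so IgG replicate 1 stood apart as it did for Tnfsf10. Without that library 18 of 24 genes lay below 0 with a median of -0.16. In Spp1-high myeloid cells 15 of 24 lay below 0 (median -0.08) and in monocyte/macrophages 13 of 23 (median -0.03), with none called.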

How the data were processed

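Droplet-based 3′ single-cell RNA sequencing (single cell 3′ V2 chemistry, per the labels' protocols) of 4 libraries, 2 Anti-CD8 and 2 IgG, was analysed. The authors deposited unnormalised UMI counts for each gene in each barcode. Per the submitters' processing notes, Cell Ranger 7.1.0 and GRCm39 were used; the annotation release is not given in the sources used here. No barcode had fewer than 500 UMIs.

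Of 29956 barcodes, those under 300 genes or over 20% mitochondrial UMIs were dropped, and the highest Scrublet scores were removed as doublets (0.8% of a library per 1000 cells; 511 and 562 barcodes in Anti-CD8, 332 and 353 in IgG), which left 27695 cells. Clusters came from scanpy 1.11.5 with leidenalg 0.10.2 (Python 3.11.15; resolution 1, 15 neighbours, 30 components of 3000 variable genes). Clustering did not use the 6 members, both CD8 chains, immunoglobulin or T-cell receptor genes, or sex-linked genes. A cluster took a name at a marker score of 3.0 or more with a margin of 1.5. Microglia needed 5 of 10 markers at 2-fold or more. A name was dropped if the 10 leading genes held markers of another class, at least as many as of its own. It was also dropped if the cells were shallow and no marker of its own was among these 10 genes. The naming thresholds were set after the values were seen, and names rebuilt here may differ from the study's. With finer clusters a T-cell-like cluster of 700 cells took no name, so it left the T-cell class. Sums of UMIs over the cells of a class in a library were tested with edgeR 4.0.16 (R 4.3.3; TMM, filterByExpr, quasi-likelihood test, Benjamini-Hochberg adjustment over all genes of a fit) in classes with at least 20 cells a library, and NK cells and fibroblasts as an extra fit from 5 cells. DESeq2 1.42.0, its size factors, no filter on low counts, leaving out each library, a replicate block, no doublet removal, stricter cell filters and finer clusters were the alternatives. CPM are UMIs per 1000000 UMIs of the class; TMM-scaled CPM come from the fits. Shares of cells were taken after thinning to 2000 UMIs; group values were compared by an exact permutation test (scipy 1.17.1), whose smallest two-sided p is 0.33. On simulated data with known changes, the T-cell fit (10299 genes) recovered 63.6% of changes of log2 1 and 98% of log2 2. The simulation gave all genes a common dispersion and changed only genes above a minimum mean count. Its shares therefore do not cover genes with few UMIs or with more spread. Counting error can exceed the SD between libraries where UMIs are few, as for Ifngr2 in T cells (76 to 154 UMIs a library).

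Named genes were the 6 members, every list gene called in a class or, where none was, the 4 with the smallest p in T cells and microglia, up to 10 called genes a direction in the splits by ligand, the 5 genes most alike in pattern to each member, and Cd8a and Cd8b1; a gene that met this rule in the split by Ifng is not reported here. The members and lists were chosen with earlier results of these data known. Promoter sequences are those of RefSeq on GRCm38.p6, in which all 6 members were matched by symbol.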

Additional observations from a re-analysis of the deposited data

Results flagged for a closer look

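The antibody difference of Ifngr2 was not the same in all classes. In T cells it exceeded that in Spp1-high myeloid cells by 0.97 on the log2 scale (interaction in edgeR, SE 0.16, adjusted p = 0.000533), with fold changes of 0.94 and -0.06, and that in microglia by 0.96 (SE 0.17, adjusted p = 0.000236), with 0.94 and -0.06. Both Anti-CD8 libraries were above both IgG libraries in T cells and below them in the myeloid classes after TMM scaling. Each test took a single spread per gene over both classes, so its p does not measure the spread among T-cell libraries alone. Without each library in turn the first difference was 0.93 to 0.97 and the second 0.94 to 0.97. Neither difference was recomputed under the other alternatives. There the T-cell fold change of Ifngr2 was less stable. It was smaller with doublets kept and with finer clusters, and below 0 in T cells without a CD8 UMI. Its call was lost in these settings, with DESeq2 and with the replicate block. These tests were chosen after the separation was seen, among 8 pairs of classes that separated in opposite directions; the other 6 gave adjusted p from 0.521 to 1, with the largest difference 0.95 for Ifngr2 in pericytes and smooth muscle against Spp1-high myeloid cells (SE 0.33). The Trdc-led cluster held 25.0% and 25.2% of T cells in Anti-CD8 and 6.99% and 9.96% in IgG; its part in these differences was not tested.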

How the results depend on the processing

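Each result was recomputed under the alternatives. Of 833 values for single genes, 696 kept direction and side of the threshold, 66 lost and 19 gained a call, and 52 reversed, none of them called under that alternative; 32 of those 52 had a size under 0.15 as reported. Same-numbered libraries had a correlation of 0.0305 of their deviations over 23675 genes. With 2 libraries a group this is the same value for both numbers, and it does not settle whether the libraries were paired. With the replicate block T cells had 40 genes called (63 without), 0 members among them.

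In T cells the number of genes called was 571 with no filter on low counts, 100 with DESeq2, 0 with finer clusters, 1 with a CD8 UMI and 0 without, and 84 to 410 without a library; leaving out IgG replicate 2 gave the 410 and IgG replicate 1 gave 353. Members called were 0 with DESeq2, the replicate block, no doublet removal, finer clusters and either CD8 split, and 0 to 2 without a library. In microglia 1 member, Tnfsf10, was called with no filter (-1.16 on the log2 scale, edgeR adjusted p = 1.56e-08), where IgG replicate 1 alone stood high. Over all cells 65 genes were called with DESeq2 and 0 to 8 without a library.

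Log2 fold changes reversed to 0.0025 and 0.0044 for Ifngr1 in Spp1-high cells and microglia (finer clusters), to -0.066 (no doublet removal) and -0.45 (finer clusters) for Ifng in T cells, and to -0.27, 0.15 and 0.036 for Ifngr2, Fasl and Tnfsf10 in T cells without a CD8 UMI. The T-cell class with finer clusters lacked a T-cell-like cluster of 700 cells that took no name. Without a library in turn, the members that changed sign ranged as follows. T cells had Ifng at -0.011 to 0.15 and Fas at -0.14 to 0.89. Spp1-high cells had Ifngr1 at -0.13 to 0.061 and Fas at -0.040 to 0.13. Microglia had Ifngr1 at -0.15 to 0.12 and Tnfsf10 at -1.83 to 0.18. Monocyte/macrophages had Fas at -0.091 to 0.30 and Tnfsf10 at -0.35 to 0.91. Endothelial cells had Ifngr2 at -0.36 to 0.18, Fas at -0.039 to 0.26 and Tnfsf10 at -0.39 to 0.063. Ependymal cells had Ifngr1 at -0.0040 to 0.27, Ifngr2 at -0.11 to 0.13 and Fas at -0.027 to 0.48. Neurons had Ifngr1 at -0.075 to 0.78 and Ifngr2 at -0.083 to 0.43. Pericytes and smooth muscle had Ifngr1 at -0.43 to 0.090. All cells had Ifngr1 at -0.11 to 0.040, Ifngr2 at -0.10 to 0.010, Fas at -0.0025 to 0.46 and Tnfsf10 at -0.40 to 0.14.

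Without a library, T cells over NK cells gave Ifngr1 at -0.039 to 0.044, Fasl at -0.023 to 0.13 and Fas at 1.27 to 1.43, with the call of Fas lost at 1.37 without Anti-CD8 replicate 2. Monocyte/macrophages over microglia gave Ifngr1 at 0.11 to 0.20 and Tnfsf10 at -0.74 to 0.21; without Anti-CD8 replicate 2 Ifngr1 was no longer called and Tnfsf10 was called lower. Their interaction gave Ifngr1 at -0.0066 to 0.22 and Fas at -0.27 to 0.25. Genes called in the split by Ifng were 591 not thinned and 74 to 157 without a library, and by Fasl 792 and 61 to 107. Not thinned, Fasl in the split by Ifng had 0.12 and Ifng in the split by Fasl 0.088. Without a library the split by Ifng gave Fasl at -0.25 to 0.0096 and Igkc at -1.77 to 4.4, and the split by Fasl gave Ifngr1 at -0.065 to 0.029 and Tnfsf10 at -0.072 to 0.19. Tnfrsf10b reversed to -0.048 (finer clusters) and -0.40 (no CD8 UMI) in T cells and ranged from -0.25 to 0.17 in endothelial cells without a library. With no filter on low counts 12 of 24 interferon-gamma induced genes were called lower in microglia, among many other genes called. The share of all genes called in that fit is not known here, and it was not repeated without IgG replicate 1. The share of T cells with an Ifng UMI, Anti-CD8 minus IgG, was -3.37 points not thinned (1.30 thinned), and with Fasl -13.9 not thinned and -11.9 thinned to 4000 UMIs (-2.93 thinned to 2000). The cause was not tested. With 2 libraries a group, few UMIs in NK cells, pericytes and microglial Tnfsf10 limit what can be called.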

Other observations

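Genes whose pattern over the 11 named classes was most like each member were ranked by Pearson correlation of log2(CPM + 1) among 17266 genes, as a description, since all classes come from the same 4 libraries. Ifng was most like A430072P03Rik (r = 0.998), Gfi1, Gm12167, Tespa1 and Trbc1, and Fasl most like Sh2d2a (r = 0.998), Cd96, Gzmb, Sla2 and Gpr174, which include the granzyme B gene. Ifngr1 was most like the ribosomal genes Rps27rt (r = 0.977), Rpl36-ps12, Rps27 and Rps16-ps2 and D16Ertd472e. Ifngr2 was most like Pou2f2 (r = 0.953), Tlr1, Ptgs1, Csf2rb2 and Tlr7, which include a pair of Toll-like receptors. Fas was less closely matched by Syap1 (r = 0.888), Skiv2l, Notch1, Sin3a and Oard1. Tnfsf10 was most like Tgtp2 (r = 0.968), Itpr3, Gbp8, Olfr56 and Gm42449, which include the interferon-induced GTPases Tgtp2 and Gbp8.

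Some clusters without a class name also held receptors. A cluster led by Igkc, Jchain, Ighm, Il1r2 and Cd209a, genes of B-lineage and dendritic cells side by side, had 381 and 418 CPM of Ifngr1 in Anti-CD8 and 331 and 361 CPM in IgG, above every named class but T cells and NK cells. The cluster led by Rgs5, Vtn and Abcc9, which scored nearly alike for mural and endothelial markers, had 117 and 133 CPM of Fas in Anti-CD8 and 120 and 136 CPM in IgG. The dividing cluster led by Ube2c had 46.5 and 51.2 CPM of Fas in Anti-CD8 and 32.4 and 23.9 CPM in IgG, groups that did not overlap and that were not tested.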
